A study of Mus musculus with 6 samples.

Results

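Muscle RNA of MDX mice, which lack full-length dystrophin, was compared with that of C57BL/10 mice, the strain on which MDX arose and which carries the intact gene, with tap water given to both. The comparison rests on 4 of the 6 one-colour arrays of the series, chosen by their titles: 2 of C57BL/10 mice on tap water (B10_tap) and 2 of MDX mice on tap water (MDX_tap). The other 2 arrays held MDX mice on JJ101, a bioceramic water (MDX_JJ101), and entered only through the estimate of spread. Mice of every group had been on their water for 10 months, and the labels used here state no age, sex or further allele. Replicates are numbered but not said to be separate mice, so p-values measure only the spread between these samples, which may be technical.

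All 6 arrays lay on 1 slide, with B10_tap in columns 1 and 2 and MDX_tap in columns 3 and 4 of the same row, so that genotype cannot be told apart from slide column. Of the 59305 probe spots on each array, 51.6% and 51.4% were well above background on the B10_tap arrays and 49.6% and 48.1% on the MDX_tap arrays, and 0 were saturated. Replicates correlated at 0.995 in B10_tap and 0.993 in MDX_tap, with a standard deviation of the replicate difference of 0.29 and 0.37 on the log2 scale.

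The tissue is labelled gastrocnemius, a limb muscle. Its label was checked against 12 heart regulator and hormone genes and 19 limb muscle regulator genes. Of the heart regulators 11 had signals well above background on each of the 4 arrays, among them the cardiac transcription factor genes Gata4, at log2 levels of 3.06 and 3.01 in B10_tap and 2.89 and 2.98 in MDX_tap, and Nkx2-5, at 3.83 and 3.77 against 3.55 and 3.60. Of the limb muscle regulators 10 were tested and 8 were well above background on all 4 arrays, whereas Myod1, Myog, Myf5 and Pax3, which direct the skeletal muscle lineage, were not well above background on both arrays of any group. Myh6, the adult heart myosin heavy chain, was at 10.45 and 10.39 in B10_tap and 10.17 and 10.30 in MDX_tap. Of 15 fast limb muscle contractile genes, 13 were tested and all 13 were well above background on all 4 arrays. Their summed linear level was 110 to 153 over the 4 arrays, and that of 9 heart contractile genes was 7081 to 8324, although probes of different genes share no scale. The heart genes and the missing lineage regulators go against the label in all 4 arrays alike. The fast contractile genes were detected, which does not show the amount of limb muscle. The groups are called by their array titles below.

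Dystrophin links the actin cytoskeleton of a muscle fibre to the matrix around it through a complex of membrane proteins, and without it the membrane tears under load. In dystrophic muscle repeated fibre damage draws in macrophages and other leukocytes, and fibroblasts lay down collagen, so that fibrosis replaces contractile tissue in limb muscle, diaphragm and heart. Signals of the transforming growth factor beta (TGF-beta) family drive matrix synthesis, and enzymes of the lysyl oxidase family crosslink the fibres. The circadian clock of muscle acts through E-box elements, at which the activators BMAL1 and CLOCK bind, and on D-box elements, which bind the output factors DBP, HLF and TEF.

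On the MDX_tap arrays transcripts of collagens, other matrix proteins, TGF-beta signalling and collagen crosslinking, macrophages and complement were higher than on the B10_tap arrays, with list medians of 0.56 to 0.98 on the log2 scale. Single genes reached further, with Comp 10.3-fold, Ltbp2 10.1-fold and Timp1 7.96-fold higher and Spp1 at least 17.1-fold higher (2 arrays a group). Transcripts of oxidative phosphorylation were lower by a small amount, with a median of -0.22. The clock genes Dbp, Ciart and Per3 were lower while Arntl was higher, and the lowest differences included Ccl28, its neighbour Tmem267, Cyp26b1 and genes best known from liver.

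Levels below are log2 of the signal relative to the 75th percentile of the same array, so that a value of 0 is a spot at that percentile, and they are compared between arrays for 1 gene, never between genes. By limma's test over 20869 genes and transcripts, with all 3 groups fitted together, 5 passed at an adjusted p of 0.05, which is 0.024% of those tested. All 5 were lower in MDX_tap. With MDX mice, on either water, these 5 were too dim to be called well above background. Their p-values therefore rest in part on the spread of such dim signals, and do not test the size of the difference. An unadjusted p under 0.05 was found for 4383 (1803 higher and 2580 lower). With the 2 groups fitted alone 125 passed, 90 higher and 35 lower, including the same 5. Without B10_tap replicate 1 or MDX_tap replicate 1 the 3-group fit called 0 by limma (2249 and 3325 at an unadjusted p under 0.05), without B10_tap replicate 2 or MDX_tap replicate 2 it called 1, and without either MDX_JJ101 array 125. Of the 13952 genes with a symbol, 85 passed upwards (0.609%) and 8 downwards (0.0573%) with the 2 groups fitted alone. As a description of size, 343 genes with a symbol (2.46%) were at least 2-fold higher and 169 (1.21%) at least 2-fold lower with both MDX_tap arrays on 1 side of both B10_tap arrays, and this is what "2-fold and apart" means below. Of the 343, 55 were well above background in only 1 of the 2 groups, as were 87 of the 169, and their fold is not a measured size. With probes well above background on all 6 arrays, 211 were higher and 33 lower. At any size, both MDX_tap arrays lay above both B10_tap arrays for 3966 genes with a symbol (28.4%) and below them for 4579 (32.8%), and counts of list members called apart are read against these shares. Standard errors (SE) and adjusted p are from the 3-group fit unless the 2 groups are named.

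Scaling moved these splits. The median difference over all genes with a symbol was -0.02, and it became 0.15 when each array was centred on its median. The calls of the 3-group fit were then 242 higher and 43 lower, against 204 higher and 209 lower with spike-in scaling. The genes 2-fold and apart were 530 higher and 111 lower with median centring, 121 and 30 with normexp and quantile normalization, and 147 and 40 in the authors' deposited table. Small list medians are therefore read against the median of all genes.

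Of the 5 transcripts that fell, 1700028P14Rik was at -2.20 and -1.87 in B10_tap and -6.29 and -5.98 in MDX_tap, where it was not well above background. It was at least 3.96-fold lower (adjusted p = 0.0119). A bound of this kind sets the dim group at the lowest signal called well above background, since a fitted difference is no measure of size there. A RefSeq non-coding transcript without a symbol was at least 2.59-fold lower, and the other 3 were transcribed regions of the mm9 build at chr11:50994911-51050704, chr12:33606225-33638225 and chr13:19611679-19620954, at least 3.52-fold, 5.94-fold and 1.34-fold lower. On the MDX_tap arrays 0 of the 5 were well above background.

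**Figure D1:**
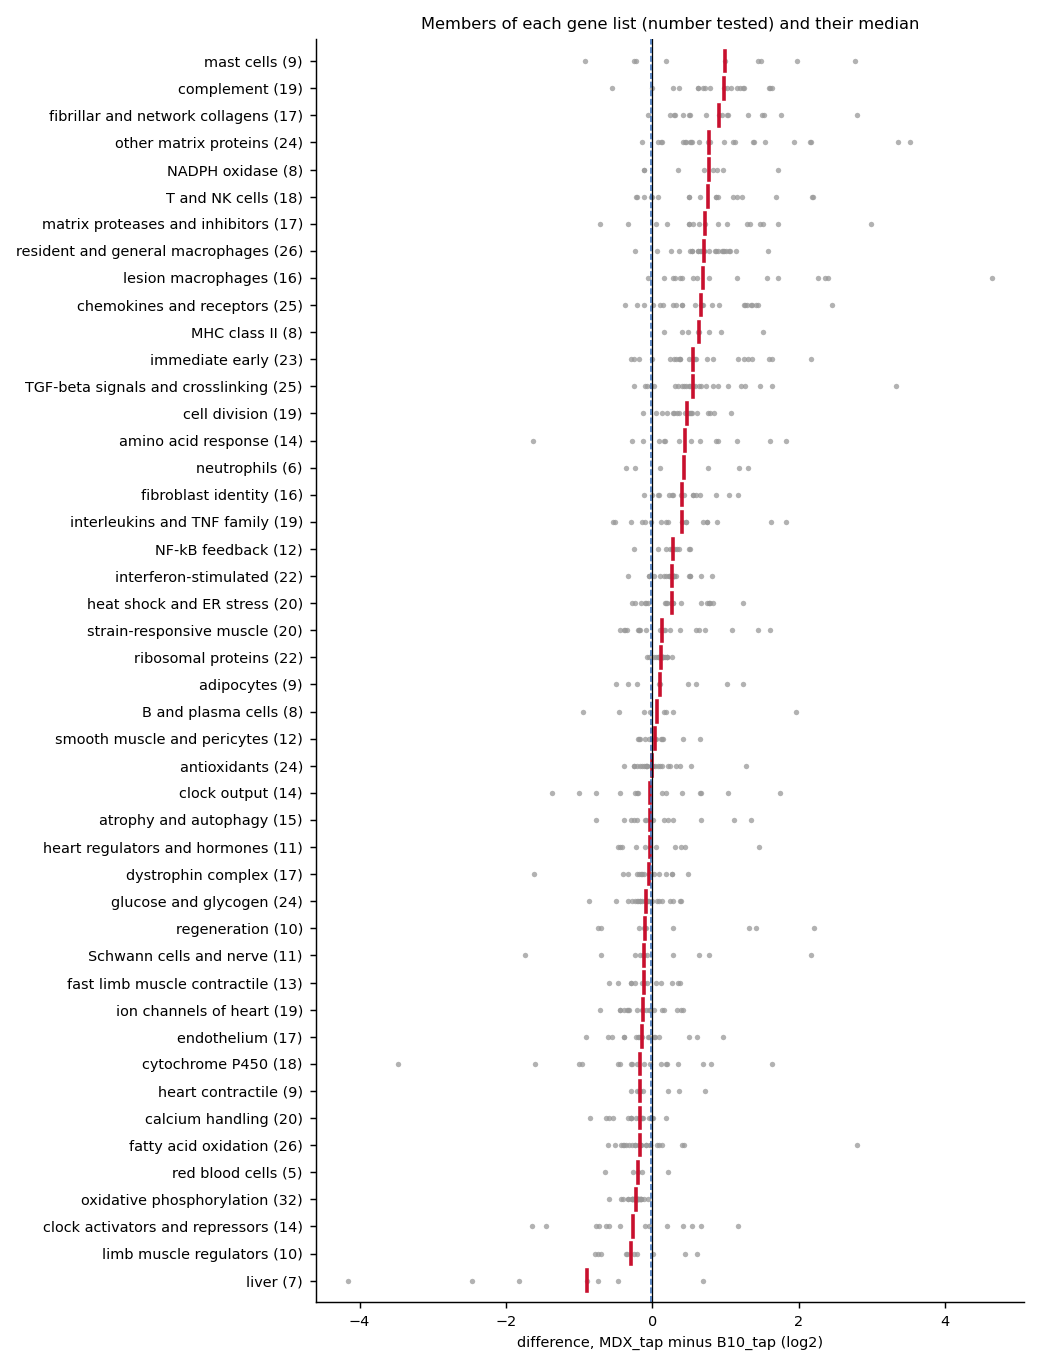
Difference of MDX_tap minus B10_tap (log2, horizontal axis) for 46 gene lists, with a grey point for each gene, a red bar at the median of its list and a dashed line at the median of all genes. The collagen list (median 0.91) and the complement list (median 0.98) have their medians to the right of that of all genes (-0.02), and the liver list (median -0.89) has its median to the left.

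The 46 lists hold 727 symbols tested, and 101 of the 343 genes that were 2-fold higher and apart are in a list, against 11 of the 169 that were 2-fold lower and apart. In the plot of differences by list, 26 of the 46 medians were above 0, and 41 were with median centring. The lists were chosen with earlier results of these data known, so their directions are descriptions.

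Promoter sequences of 4 genes are shown because their transcripts are described below and 3 of them belong to the circadian clock. They are the 250 bases before the RefSeq start site (GRCm38.p6), all on the minus strand. Capitals mark the E-box CACGTG in Ciart (chr3:95882229-95882478) and Bhlhe41 (chr6:145865421-145865670), the D-box TTATGTAA in Per3 (chr4:151044666-151044915) and the AP-1 motif, read as TGAGTCA, in Sprr1a (chr3:92485882-92486131).
Ciart: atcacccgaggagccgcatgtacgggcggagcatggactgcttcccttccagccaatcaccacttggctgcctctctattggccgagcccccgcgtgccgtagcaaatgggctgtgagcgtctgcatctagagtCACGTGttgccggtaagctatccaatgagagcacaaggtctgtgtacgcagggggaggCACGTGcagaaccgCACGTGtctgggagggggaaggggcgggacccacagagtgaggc
Bhlhe41: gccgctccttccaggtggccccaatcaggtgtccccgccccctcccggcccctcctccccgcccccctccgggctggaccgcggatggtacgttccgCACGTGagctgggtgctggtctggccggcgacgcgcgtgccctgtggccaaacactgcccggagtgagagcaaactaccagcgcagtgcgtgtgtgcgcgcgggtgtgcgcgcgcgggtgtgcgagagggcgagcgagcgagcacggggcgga
Per3: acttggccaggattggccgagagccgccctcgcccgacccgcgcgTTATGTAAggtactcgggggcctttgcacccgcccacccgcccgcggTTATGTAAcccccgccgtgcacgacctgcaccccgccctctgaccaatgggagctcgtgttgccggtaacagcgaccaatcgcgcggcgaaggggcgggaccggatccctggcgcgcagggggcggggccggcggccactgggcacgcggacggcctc
Sprr1a: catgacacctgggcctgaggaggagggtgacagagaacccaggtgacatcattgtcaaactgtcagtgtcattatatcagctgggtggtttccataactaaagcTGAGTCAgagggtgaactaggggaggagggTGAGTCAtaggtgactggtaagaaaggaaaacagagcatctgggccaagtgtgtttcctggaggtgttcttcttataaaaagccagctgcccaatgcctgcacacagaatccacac
Ciart holds E-boxes that begin 116, 58 and 44 bases before its start site, and Bhlhe41 holds 1 that begins 153 bases before. Per3 has D-boxes that begin 205 and 158 bases before its start, and Sprr1a has AP-1 motifs that begin 146 and 116 bases before.

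Dmd, the dystrophin gene, was at 1.06 on both B10_tap arrays and at -0.84 and -0.27 on the MDX_tap arrays. Both MDX_tap arrays lay below both B10_tap arrays, and the difference of -1.61 (SE 0.21, 3.06-fold lower) did not pass (adjusted p = 0.0717, and adjusted p = 0.0710 with the 2 groups fitted alone). Its 3 probes differed by -1.61 to -1.23. The MDX allele is a point mutation, so the RNA level does not by itself check the genotype. Utrn, which encodes utrophin, a dystrophin relative, was at -0.47 and -0.47 in B10_tap and at -0.57 and -0.20 in MDX_tap, which lie on both sides of B10_tap.

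Of 18 genes of the dystrophin complex, 17 were tested, and their median was -0.04, or 0.13 with median centring. Of these 2 were apart and higher and 7 were apart and lower, the latter a share not far above that of all genes (32.8%), and Dmd was the single member 2-fold and apart. Dtna, which encodes the cytoplasmic partner alpha-dystrobrevin, was at 0.45 and 0.54 in B10_tap and 0.12 and 0.05 in MDX_tap, a difference of -0.41. The syntrophin gene Sntb2 differed by 0.48 and Lama2, the laminin chain to which the complex binds outside the cell, by 0.27. Dag1, the dystroglycan gene, differed by -0.21.

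Collagen genes were higher in MDX_tap as a group. Of 17 tested, 16 were apart and higher and 0 were apart and lower, with a median of 0.91 against -0.02 over all genes with a symbol. The largest difference was that of Col8a2, a chain of network-forming type VIII collagen, at -3.88 and -3.48 in B10_tap and -1.10 and -0.67 in MDX_tap (2.80, 6.95-fold). Col3a1, the fibrillar collagen of early scar, was at 4.09 and 3.91 against 5.70 and 5.83 (1.76, 3.39-fold). For both genes every MDX_tap array was above every B10_tap array by more than the replicates differed, and 6 of the 17 passed with the 2 groups fitted alone.

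The main chain of type I collagen, Col1a1, was at 2.75 and 2.88 in B10_tap and 4.11 and 4.13 in MDX_tap. It differed by 1.31 (SE 0.28, 2.47-fold, adjusted p = 0.123, and adjusted p = 0.0468 with the 2 groups fitted alone). Col5a2, a fibre-starting collagen chain, was at -1.73 and -1.88 against -0.26 and -0.29 (1.53). Col14a1, which binds to collagen fibres, was at 1.02 and 1.00 against 2.47 and 2.55. Replicates of these 3 genes lay close together, and the groups lay far apart. The basement membrane chains were the exception: Col4a1 differed by 0.25 and Col4a2 by -0.06, or 0.11 with median centring.

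Genes of other matrix proteins behaved alike, with 20 of 24 apart and higher, 1 apart and lower, and a median of 0.78. Fn1, fibronectin, was at 3.04 and 3.14 in B10_tap and 4.70 and 4.56 in MDX_tap (1.54, 2.90-fold). Comp, a cartilage and tendon matrix protein, was at -0.26 and -0.37 against 3.02 and 3.08 (3.36, SE 0.67, 10.3-fold, adjusted p = 0.110, and adjusted p = 0.0264 with the 2 groups fitted alone). Postn, periostin, was at 1.29 and 1.34 against 3.47 and 3.48 (2.16, 4.47-fold). The 2 MDX_tap arrays were nearly equal for Comp and Postn, whereas the MDX_JJ101 arrays were at 3.04 and 0.91 for Comp and 2.77 and 1.42 for Postn, a spread that enters the 3-group fit.

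Tnc, tenascin C, a matrix protein of injury and repair, was at -6.10 and -5.08 in B10_tap, where it was not well above background, and -2.32 and -1.81 in MDX_tap, at least 4.34-fold higher. Thbs1, thrombospondin 1, which activates latent TGF-beta, was at -0.58 and -0.61 against 1.57 and 1.11 (1.93). Vcan, versican, was at 0.10 and 0.10 against 1.15 and 1.25. Of this list Dcn, decorin, differed by 0.53, and Thbs2, thrombospondin 2, was the member apart and lower, at 0.48 and 0.42 in B10_tap and 0.40 and 0.23 in MDX_tap, a direction that turned with median centring (0.041).

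**Figure D2:**
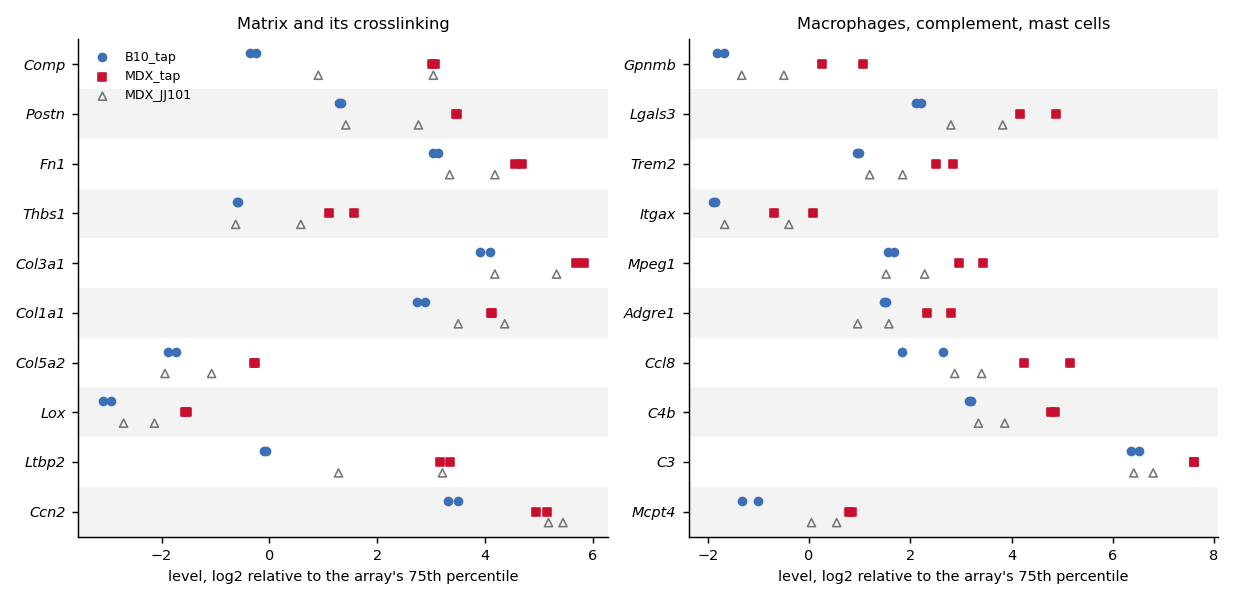
Level (log2, relative to the 75th percentile of the array, horizontal axis) of matrix genes (left) and of macrophage, complement and mast cell genes (right), with a symbol for each of the 2 arrays of B10_tap, MDX_tap and MDX_JJ101. Both MDX_tap arrays lie above both B10_tap arrays for Col3a1, Fn1, Postn, Ccn2, C4b and Trem2, and the MDX_JJ101 arrays lie far from each other for Postn.

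Of 25 genes of TGF-beta signalling and collagen crosslinking, 20 were apart and higher and 0 apart and lower, with a median of 0.56. Among the ligands, Tgfb3 was at 2.35 and 2.45 in B10_tap and 3.34 and 3.27 in MDX_tap (0.90), Tgfb2 differed by 0.66 and Tgfb1 by -0.07, or 0.10 with median centring. The receptor gene Tgfbr1 differed by 0.84. Targets differed among themselves: Tgfbi differed by 0.35 with overlapping arrays, whereas Ccn2, connective tissue growth factor, was at 3.32 and 3.50 against 5.15 and 4.94 (1.63, adjusted p = 0.0528, and adjusted p = 0.0482 with the 2 groups fitted alone).

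All 4 lysyl oxidase family genes tested were apart and higher by the probe of highest mean, Loxl1 by 0.64 and Loxl2 by 0.43. The 2 probes of Loxl1 lay between 0.26 and 0.64, and the 3 probes of Loxl2 between 0.04 and 0.43. Lox, lysyl oxidase, was at -2.93 and -3.10 in B10_tap and -1.56 and -1.52 in MDX_tap (1.47), and its relative Loxl3 at -2.06 and -1.88 against -0.74 and -0.77 (1.22). Of the hydroxylase genes that modify collagen, Plod2 and P4ha1 were apart and higher, by 0.50 and 0.46, whereas Plod1 differed by -0.24 with overlapping arrays and the other 2 tested differed by less than 0.1. Ltbp2, a latent TGF-beta binding protein relative of elastic fibres, was at -0.06 and -0.10 against 3.17 and 3.34 (3.34, SE 0.61, 10.1-fold, adjusted p = 0.103, and adjusted p = 0.0264 with the 2 groups fitted alone). For Lox, Loxl3 and Ltbp2 the MDX_tap arrays were close to each other and above B10_tap.

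Of 17 matrix protease and inhibitor genes tested, 14 were apart and higher and 2 apart and lower, with a median of 0.72. Timp1, an inhibitor of matrix metalloproteases, was at 0.57 and 1.26 in B10_tap and 4.14 and 3.68 in MDX_tap (2.99, SE 0.54, 7.96-fold). Adamts4, a protease of versican and aggrecan, was at -3.57 and -3.81 against -1.78 and -2.16 (1.72), and Mmp3, stromelysin 1, at 0.52 and 1.02 against 2.25 and 1.95 (1.34). Timp4, the inhibitor most typical of heart, ran the other way, at 3.04 and 3.40 against 2.79 and 2.23 (-0.71).

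Markers of fibroblasts were higher together with these matrix genes. Of 16, each well above background on all 4 arrays, 12 were apart and higher and 1 apart and lower, and their summed linear level was 430 to 443 in B10_tap and 583 to 625 in MDX_tap. The collagen list summed to 127 to 139 against 244 to 250. Pi16, a marker of resident fibroblasts, was at 5.03 and 5.09 in B10_tap and 6.01 and 6.20 in MDX_tap (1.04), and Wt1, which marks epicardium and its derivatives, at 0.31 and 0.50 against 1.39 and 1.77 (1.17). Pdgfra, the receptor of fibroblast progenitors, differed by 0.56. In a bulk sample more cells of a type and more RNA per cell cannot be told apart, and the part of fibroblast number in the matrix genes was not tested.

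Macrophage genes were also higher in MDX_tap. Of 26 resident and general macrophage genes, 23 were apart and higher and 1 apart and lower, with a median of 0.71 and a summed linear level of 183 to 190 in B10_tap against 250 to 328 in MDX_tap. Adgre1, a surface receptor of mature macrophages, was at 1.49 and 1.53 in B10_tap and 2.80 and 2.33 in MDX_tap (1.06). Mpeg1, a pore-forming protein of phagocytes, was at 1.57 and 1.68 against 3.44 and 2.96 (1.58). The growth factor receptor gene Csf1r differed by 0.51 and Mrc1, the mannose receptor, by 0.86, whereas Itgam differed by -0.24 with its 3 probes between -0.24 and 0.58.

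Among 16 tested genes of macrophages in damaged tissue, 15 were apart and higher and 0 apart and lower, with a median of 0.69. Spp1, osteopontin, a cytokine and matrix protein of such macrophages, was at -4.92 and -4.54 in B10_tap, where it was not well above background, and 0.30 and -0.47 in MDX_tap, at least 17.1-fold higher (adjusted p = 0.0595, and adjusted p = 0.0456 with the 2 groups fitted alone). Gpnmb, a lysosomal membrane protein, was at -1.68 and -1.81 against 1.06 and 0.25 (2.40). Trem2, a lipid receptor of phagocytes, was at 0.94 and 0.98 against 2.85 and 2.51 (1.71). In each of these genes, and in Lgals3 and Chil3 of the same list, MDX_tap replicate 1 was the higher of the MDX_tap arrays.

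That replicate was higher for several leukocyte lists, and for other lists too. It was above replicate 2 for 21 of 23 immediate early, 15 of 17 endothelial and 15 of 17 matrix protease and inhibitor genes. For neutrophils this held for 2 of 6 genes and for mast cells for 5 of 9. MDX_tap replicate 1 was above replicate 2 for 23 of 26 resident macrophage genes, 8 of 8 MHC class II genes, 23 of 25 chemokine genes and 22 of 22 interferon genes, against 9 of 17 collagens and 6598 of 13952 genes with a symbol. Without MDX_tap replicate 1 the median was 0.24 instead of 0.67 for chemokines, 0.41 instead of 0.76 for T and NK cells, 0.40 instead of 0.63 for MHC class II, 0.13 instead of 0.28 for NF-kB genes and -0.02 instead of 0.27 for the interferon response. Without MDX_tap replicate 2 those medians were 1.14, 1.13, 0.87, 0.43 and 0.56. The collagen median was between 0.81 and 0.99 without any 1 of the 4 arrays, and the complement median between 0.93 and 1.03.

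Complement genes had a median of 0.98, with 16 of 19 apart and higher and 0 apart and lower. C4b, which feeds the classical pathway, was at 3.19 and 3.15 in B10_tap and 4.85 and 4.77 in MDX_tap (1.64, 3.12-fold, adjusted p = 0.0679, and adjusted p = 0.0455 with the 2 groups fitted alone). C3, the central component, was at 6.51 and 6.37 against 7.60 and 7.60 (1.16). The list's summed level was 240 to 258 in B10_tap and 491 to 514 in MDX_tap, and C1qa differed by 0.37.

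Of 9 mast cell genes tested, 4 were 2-fold higher and apart and 0 lower. At any size 5 of the 9 were apart and higher and 2 apart and lower, and the lowest fitted difference was -0.92. Their median was 1.00, or 0.60 with the members that were measured in 1 group set at their bounds, 0.33 with normexp and quantile normalization, and 0.38 in the authors' deposited table. Mcpt4, a chymase of connective tissue mast cells, was at -1.01 and -1.33 in B10_tap and 0.85 and 0.78 in MDX_tap (1.99). Cma1, another chymase, and Fcer1a, the alpha chain of the IgE receptor, were at least 2.52-fold and 1.51-fold higher. Kit, the receptor on which mast cells depend and which other cells carry, differed by -0.24. Their summed level was 3.27 to 3.68 in B10_tap and 5.01 to 5.58 in MDX_tap.

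Of 18 T and NK cell genes tested, 6 were 2-fold higher and apart. Il7r, the interleukin 7 receptor, was at -3.10 and -4.03 in B10_tap and -1.17 and -1.58 in MDX_tap (2.19), and Cytip, a protein of activated lymphocytes, at -2.33 and -2.05 against -0.42 and -0.56 (1.70). The T cell receptor chains differed among themselves: Cd3g was at -2.53 and -2.54 against -1.23 and -1.53 (1.15), and Cd3e, apart and lower, differed by -0.21. The list's summed level of 11.7 to 11.9 in B10_tap lay below the 12.7 to 14.6 of MDX_tap. Of 6 neutrophil genes 0 were 2-fold and apart.

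Chemokine ligands and receptors had 7 of 25 tested genes 2-fold higher and apart. Ccl8, a monocyte attractant, was at 1.83 and 2.64 in B10_tap and 5.15 and 4.24 in MDX_tap (2.46, 5.49-fold), and Ccr2, the receptor of blood monocytes, at -1.61 and -1.41 against 0.12 and -0.43 (1.35). Cxcl12, made by stromal cells, was at 6.58 and 6.59 against 6.34 and 6.09 (-0.37), the single member apart and lower. Il6 showed how far 1 array could reach, at -4.54 and -3.45 in B10_tap and -0.90 and -3.42 in MDX_tap. Of the interferon response genes 7 of 22 were apart and higher, near the share of all genes (28.4%), and 0 were 2-fold.

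Immediate early genes, which answer growth factors and also tissue handling, had 12 of 23 apart and higher and 0 lower, with a median of 0.56. Without MDX_tap replicate 1 the median was 0.18, and without the other array of the group 1.00. The AP-1 subunit gene Fosl2 was at 1.52 and 1.58 in B10_tap and 3.26 and 3.04 in MDX_tap (1.60), and Maff, a small partner of leucine zipper factors, at -0.23 and -0.16 against 1.06 and 1.16 (1.30). Myc was at -2.84 and -2.77 against -1.43 and -1.68 (1.25). For these 3 the MDX_tap arrays were closer to each other than for Egr2, at 0.67 and -0.23. The AP-1 motif TGACTCA, searched on both strands, was in 0 of the 20 genes of this list with a promoter. A gene counts if any of its promoters holds the motif. It was in 15 of 256 such genes (5.86%) 2-fold higher and apart, 12 of 130 (9.23%) lower, and 4.24% of 11091 tested genes with a promoter. A match is a description of letters and not a site.

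Genes of amino acid supply and the integrated stress response had 10 of 14 apart and higher and 3 apart and lower. Mthfd2, a mitochondrial folate enzyme, was at -2.82 and -2.68 in B10_tap and -0.72 and -1.13 in MDX_tap (1.82), and Nupr1, a stress-induced chromatin protein, at 1.75 and 1.74 against 2.97 and 2.84 (1.16). Cth, which makes cysteine, ran the other way, at -1.83 and -0.99 against -2.93 and -3.14 (-1.63 and -0.75 by its 2 probes). Of 20 heat shock genes 14 were apart and higher, with Hsph1 at 0.78 and Hsp90aa1 at 0.75. Nox4, an NADPH oxidase of fibroblasts and muscle, was at -1.47 and -1.04 in B10_tap and 0.54 and 0.38 in MDX_tap (1.71).

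Of 15 atrophy and autophagy genes tested, 6 were apart and higher and 6 apart and lower. Ddit4, which restrains the growth regulator mTOR, was at 3.89 and 3.94 in B10_tap and 4.99 and 5.54 in MDX_tap (1.35), and Cebpd, a transcription factor of acute inflammation, at 3.91 and 4.05 against 5.23 and 4.96 (1.12). Fkbp5, a chaperone partner of the glucocorticoid receptor that stands in the clock output list, was at 0.79 and 0.99 against 1.70 and 2.13 (1.03). In each the MDX_tap arrays were above the B10_tap arrays. Of 24 antioxidant genes 5 were apart and higher and 8 apart and lower, shares near or below those of all genes (28.4% and 32.8%), with the metallothionein gene Mt2 highest, at 4.14 and 4.70 against 6.04 and 5.38 (1.29).

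Cell division genes had 14 of 19 apart and higher and 1 apart and lower, with a median of 0.48 that was 0.28 without B10_tap replicate 1. Mki67, a protein of dividing cells, was at 0.12 and 0.53 in B10_tap and 1.00 and 1.17 in MDX_tap, and Bub1b, a spindle checkpoint kinase, at -4.36 and -3.97 against -2.89 and -3.27. Their summed level was 35.0 to 40.0 in B10_tap and 44.4 to 48.7 in MDX_tap. B10_tap replicate 1 was below B10_tap replicate 2 for 19 of 19 of these genes.

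Of 18 genes of muscle regeneration 10 were tested, and Myod1, Myog and the embryonic myosin Myh3 were not well above background on both arrays of any group. Their median was -0.10, or 0.08 with median centring, and 3 were apart and lower. Another 3 were 2-fold higher and apart. Igf1, insulin-like growth factor 1, was at 0.79 and 0.69 in B10_tap and 2.12 and 2.18 in MDX_tap (1.41, 2.66-fold, its 4 probes between 1.15 and 1.41). Hgf, which wakes satellite cells, was at least 2.77-fold higher, and Ncam1 was at -2.48 and -2.63 against -1.22 and -1.26 (1.32). Pax7, which marks satellite cells, was at -2.50 and -2.45 in B10_tap and lower in MDX_tap, at -3.16 and -3.19 (-0.70).

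Other cell types were followed by their marker lists. Endothelial genes summed to 491 to 525 in B10_tap and 477 to 524 in MDX_tap, with 4 of 17 apart and higher, 8 of 17 apart and lower and a median of -0.14, or 0.03 with median centring. Cldn5, a claudin of endothelial junctions, was at 3.38 and 3.11 against 4.39 and 4.04 (0.97), and Aplnr, the apelin receptor, at 0.54 and 0.60 against -0.18 and -0.48 (-0.90). Smooth muscle and pericyte genes summed to 231 to 232 in B10_tap and 245 to 276 in MDX_tap, adipocyte genes to 254 to 282 and 279 to 296, and red blood cell genes to 415 to 806 and 481 to 545. Most of the adipocyte sum was Fabp4, at 7.94 and 8.10 in B10_tap and 8.16 and 8.07 in MDX_tap. Of 9 adipocyte genes tested 4 were apart and higher, with Adipoq (1.03) and Cfd (1.24) 2-fold, and 1 was apart and lower (median 0.11). Schwann cell and nerve genes summed to 20.6 to 21.5 in MDX_tap, above both B10_tap arrays, although 4 of 11 were apart and higher, 3 apart and lower, and the median was -0.11, or 0.07 with median centring.

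Clock genes differed in both directions, as genes with a symbol did at large. Arntl, which encodes the activator BMAL1, was higher in MDX_tap, at 0.12 and -0.69 in B10_tap and 0.79 and 0.97 in MDX_tap (1.17), and its partner gene Clock differed by 0.55. Several repressors, which work against BMAL1 and CLOCK, were lower, whereas the repressor gene Per1 was apart and higher, by 0.31 to 0.60 over all settings. Nr1d1, the repressor REV-ERB alpha, was at 1.71 and 1.51 against 0.92 and 0.76 (-0.77), Per3 at -2.75 and -1.95 against -3.87 and -3.72 (-1.44), and Ciart, a repressor of the activators, at -1.83 and -1.20 against -3.10 and -3.21 (-1.64, SE 0.23, adjusted p = 0.0775).

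Among the output factors, Dbp was at 5.62 and 5.94 in B10_tap, 4.46 and 4.38 in MDX_tap and 5.62 on both MDX_JJ101 arrays (-1.36, adjusted p = 0.0595). Hlf was at 1.54 and 1.49 against 0.47 and 0.56, and Tef at 5.53 and 5.99 against 5.04 and 4.95 (-0.76). These 3 output factors, Dbp, Hlf and Tef, were thus each lower in MDX_tap with the arrays apart, and other proteins that bind D-boxes are not covered by this. Of 14 clock activators and repressors 5 were apart and higher and 7 apart and lower (median -0.26), and of 14 outputs 5 and 6 (median -0.03, or 0.15 with median centring). Over all genes with a symbol 28.4% were apart and higher and 32.8% apart and lower, so differing both ways is not particular to the clock lists. The labels used here do not give the time of day at which muscle was collected.

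**Figure D3:**
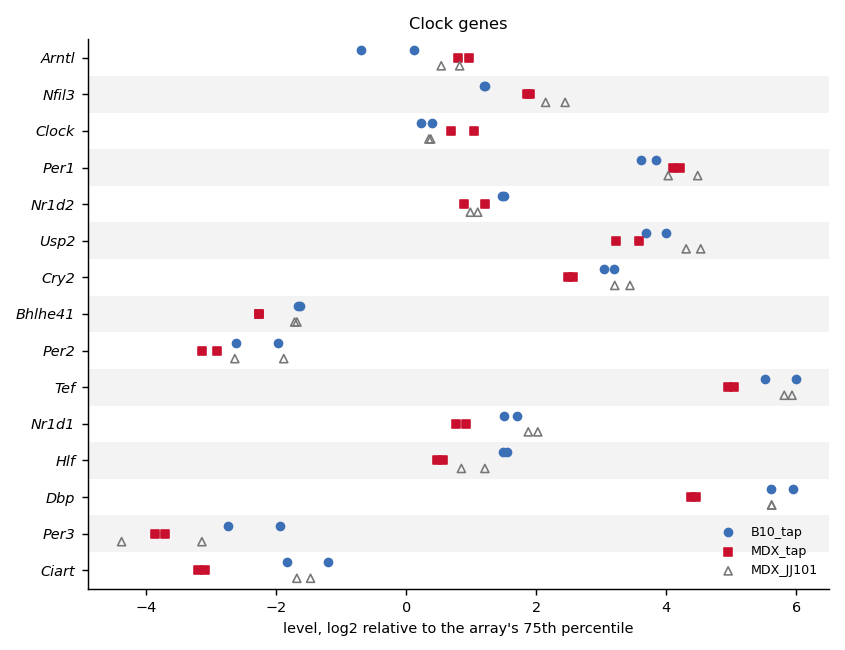
Level (log2, relative to the 75th percentile of the array, horizontal axis) of clock genes, with a symbol for each of the 2 arrays of B10_tap, MDX_tap and MDX_JJ101, ordered by the difference of MDX_tap and B10_tap. Arntl lies higher in MDX_tap, and Nr1d1, Per3, Ciart, Dbp, Hlf and Tef lie lower with the arrays of the groups apart.

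The E-box CACGTG was in 8 of the 24 clock genes with a promoter (33.3%). It was in 9.49% of 11091 tested genes with a promoter and 6.86% of all 27025 genes with a promoter. It was also in 6 of 20 immediate early genes with a promoter (30.0%), so a high share was not particular to clock genes. Among clock genes with a promoter it was in 4 of 12 that were apart and lower, namely Ciart, Bhlhe41, Tef and Tspan4, and in 3 of 9 that were apart and higher, namely Per1, Fkbp5 and Lonrf3. The motif was thus found in both directions of difference. Motifs were searched on both strands, and none of the 3 contains another. The D-box TTATGTAA was in Per3 and Coq10b of these genes and in 0.631% of 11091 tested genes with a promoter. Cdkn1a, a cell cycle inhibitor listed as a clock output, was at 0.78 and 0.71 in B10_tap and 2.50 and 2.48 in MDX_tap (1.75), with its 2 probes at 0.48 and 1.75.

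Heart and strain-responsive genes differed in both directions. Of 11 heart regulator and hormone genes 3 were apart and higher and 5 apart and lower (median -0.03, or 0.14 with median centring), of 9 heart contractile genes 3 and 6 (median -0.16, or 0.01 with median centring), and of 20 strain-responsive genes 7 and 6 (median 0.13). The strain-responsive counts are near the shares of all genes (28.4% and 32.8%). Among the higher members, Nppa, atrial natriuretic peptide, was at 7.09 and 7.48 in B10_tap and 8.97 and 8.52 in MDX_tap (1.46, SE 0.29), and Myh7, the slow and fetal heart myosin, at 5.24 and 5.75 against 6.53 and 5.91 (0.72). Nmrk2, an NAD-making kinase of stressed muscle and heart, was at 2.20 and 2.46 against 3.69 and 3.85 (1.44). In all 3 genes the MDX_tap arrays were above the B10_tap arrays. Heart contractile genes summed to 8179 to 8324 in B10_tap and 7081 to 7886 in MDX_tap. Among the lower members, the cardiac transcription factor genes Irx4 and Tbx5 differed by -0.47 and -0.44. Of 19 heart ion channel genes 3 were apart and higher and 8 apart and lower, among them the sodium channel subunit Scn4b, at 2.64 and 2.97 against 1.90 and 2.29 (-0.71).

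Fast limb contractile genes differed more between the MDX_tap arrays than between groups. Of 13 tested, 9 had 1 MDX_tap array above and the other below both B10_tap arrays, whereas Atp2a1, the calcium pump of fast fibres, was apart and lower, at 3.36 and 3.30 in B10_tap and 2.85 and 2.87 in MDX_tap (-0.47). Tnnc2, fast troponin C, was at 3.14 and 2.62 in B10_tap and 1.31 and 3.88 in MDX_tap. The list's median was -0.11. Without MDX_tap replicate 1 it became 0.87, and without the other array of the group -1.14. The MDX_tap array low for fast limb genes is the one high for many leukocyte, endothelial and immediate early genes. The part of muscle content in those values was not tested.

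**Figure D4:**
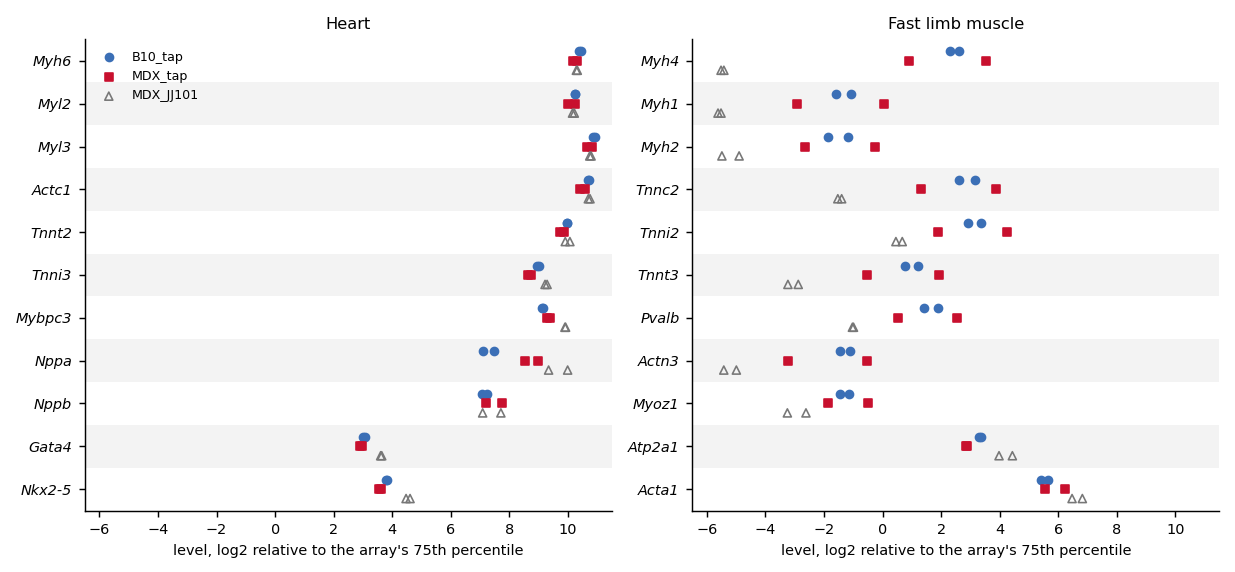
Level (log2, relative to the 75th percentile of the array, horizontal axis) of heart genes (left) and fast limb muscle genes (right), with a symbol for each of the 2 arrays of B10_tap, MDX_tap and MDX_JJ101. The MDX_tap arrays lie on both sides of B10_tap for Tnnc2 (1.31 and 3.88 against 3.14 and 2.62) and close together for Myh6.

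Medians of the energy metabolism lists were slightly below 0, and with median centring they were -0.05 for oxidative phosphorylation, 0.00 for fatty acid oxidation and 0.10 for glucose and glycogen. Of 32 genes of oxidative phosphorylation 30 were apart and lower and 0 had a positive difference, with a median of -0.22. Fatty acid oxidation genes had 14 of 26 apart and lower with a median of -0.17, and Ech1, a dienoyl-CoA isomerase, was at 7.71 and 7.56 against 7.04 and 7.21 (-0.51). Of 24 glucose and glycogen genes 5 were apart and higher and 11 apart and lower (median -0.08). In these 3 lists 0 members were 2-fold lower and apart.

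Angptl4, an inhibitor of lipoprotein lipase listed with fatty acid genes, ran against them, at 0.21 and 0.45 in B10_tap and 3.06 and 3.21 in MDX_tap (2.80, SE 0.43, 6.97-fold, adjusted p = 0.0871, and adjusted p = 0.0371 with the 2 groups fitted alone). Of 20 calcium handling genes 9 were apart and lower and 0 apart and higher, with a median of -0.16, or 0.01 with median centring. Camk2b, a calmodulin kinase, was at 1.39 and 1.56 against 0.72 and 0.98 (-0.63), and Jph2, which couples the cell membrane to the calcium store, differed by -0.54. Of 22 ribosomal protein genes 18 were apart and higher, with a median of 0.12.

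**Figure D5:**
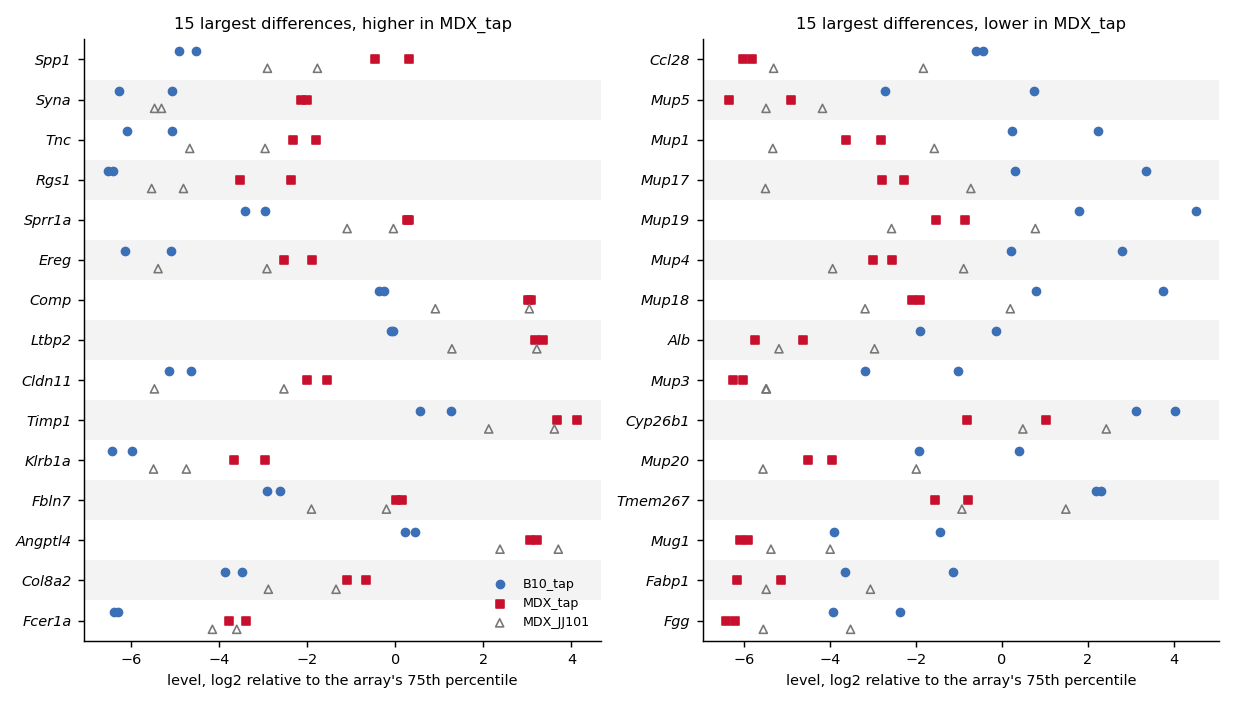
Level (log2, relative to the 75th percentile of the array, horizontal axis) of the 15 genes with the highest (left) and the 15 with the lowest difference (right), with a symbol for each of the 2 arrays of B10_tap, MDX_tap and MDX_JJ101. They were taken among named genes whose arrays were apart and that were well above background on both arrays of B10_tap or of MDX_tap. Names that are only identifiers, such as 1700028P14Rik, were left out. Spp1 and Syna are among the highest and Ccl28 among the lowest, and the 2 B10_tap arrays lie far from each other for the major urinary protein genes (Mup).

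Among the 15 highest differences, outside the matrix and macrophage lists, was Sprr1a, a small proline-rich protein induced in stressed heart and injured nerve, at -2.95 and -3.42 in B10_tap and 0.26 and 0.30 in MDX_tap (3.47, SE 0.37, adjusted p = 0.0614, and adjusted p = 0.0390 with the 2 groups fitted alone). Syna, syncytin A, which fuses cells of the placenta, was at -6.29 and -5.07 in B10_tap, not well above background, and -2.02 and -2.15 in MDX_tap, at least 4.27-fold higher. Ereg, epiregulin, and Cldn11, a tight junction claudin, were at least 3.90-fold and 5.26-fold higher. Of these 15 highest genes 11 had a promoter, and the AP-1 motif was in that of Sprr1a alone. Fbln7, a fibulin of the matrix, was at -2.63 and -2.92 against 0.01 and 0.15 (2.85, 7.22-fold).

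Lymphocyte and granulocyte genes complete that group. Klrb1a, an NK cell receptor, and Rgs1, a regulator of G protein signals in leukocytes, were at least 1.82-fold and 2.33-fold higher. The smallest p of the 2-group fit also fell on Mefv, the pyrin gene of phagocytes, and Sfrp2, a WNT-binding protein of fibroblasts. Mefv was at least 5.37-fold higher (adjusted p = 0.0528 in the 3-group fit, and adjusted p = 0.0346 with the 2 groups fitted alone). It was well above background in MDX_tap alone and was kept only through that group. Its p-values therefore rest in part on dim signals and do not test the size of the difference. Sfrp2 was at -0.92 and -0.92 in B10_tap and 1.76 and 1.53 in MDX_tap (2.57, 5.92-fold). On the MDX_JJ101 arrays Sfrp2 was at 1.32 and -0.58.

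The lowest difference was that of Ccl28, a chemokine of mucosal surfaces, at -0.60 and -0.44 in B10_tap, -6.03 and -5.83 in MDX_tap, with MDX_JJ101 at -5.32 and -1.83. It was not well above background in MDX_tap, so its p-values rest in part on dim signals, and it was at least 11.3-fold lower. Its adjusted p = 0.111 in the 3-group fit, and adjusted p = 0.0220 with the 2 groups fitted alone. Tmem267, a membrane protein gene that lies next to Ccl28 in the RefSeq gene table (GRCm38.p6), was at 2.20 and 2.30 in B10_tap, -0.79 and -1.57 in MDX_tap, with MDX_JJ101 at -0.93 and 1.49 (-3.43, SE 0.79, 10.8-fold lower, its 3 probes between -3.92 and -2.42). Both genes were thus lower on both MDX_tap arrays and higher on MDX_JJ101 replicate 2 than on replicate 1. The nearest tested genes beyond the pair differed far less, Hmgcs1 by 0.11 on 1 side and 3110070M22Rik by -0.60 on the other.

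Cyp26b1, which breaks down retinoic acid, was at 4.04 and 3.11 in B10_tap and -0.81 and 1.02 in MDX_tap (-3.47, SE 0.88, 11.1-fold lower, adjusted p = 0.144). Among 18 P450 genes tested Cyp4f14 was also lower, at -1.97 and -1.63 against -3.48 and -3.31 (-1.60), and Cyp1b1, which acts on oestrogens and retinoids, was higher, at -0.19 and -0.40 against 1.30 and 1.38 (1.64). Their groups did not overlap, and the directions differed within the family.

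Genes best known from liver filled most of the rest of the 15 lowest. Alb, albumin, was at -1.91 and -0.15 in B10_tap and -4.62 and -5.76 in MDX_tap, at least 7.95-fold lower. The major urinary protein genes Mup5, at -2.73 and 0.75 in B10_tap, and Mup20, at -1.92 and 0.40, were at least 8.17-fold and 9.55-fold lower, and Mup1 was at 0.23 and 2.23 against -2.81 and -3.64, well above background on 1 of 2 MDX_tap arrays. B10_tap replicate 2 was the higher of its group for each of these genes that is given here. Without it the bounds were 4.30-fold for Alb, 2.44-fold for Mup5 and 4.27-fold for Mup20. Mug1, a protease inhibitor, Fabp1, a fatty acid binding protein, and Fgg, a fibrinogen chain, were lower by at least 2.55-fold, 3.08-fold and 1.83-fold in that order, and without B10_tap replicate 2 by at least 1.09-fold, 1.28-fold and 1.06-fold. Mup genes are near-identical copies whose probes may share transcripts, so that 9 of 10 being 2-fold lower and apart counts related measurements, and the part of another tissue in these values was not tested. Of the 9 liver genes listed, 7 were tested, 5 were apart and lower, and their median was -0.89. The summed level of the tested members ran the other way, at 35.9 and 42.8 in B10_tap and 43.6 and 47.6 in MDX_tap, with 1 member apart and higher.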

How the data were processed

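RNA of 6 labelled gastrocnemius samples (2 each of B10_tap, MDX_tap and MDX_JJ101) was Cy3-labelled and read on one-colour Agilent arrays designed on the mm9 build. The deposited intensity values are processed signals, background-subtracted by Agilent Feature Extraction 11.5.1.1 per the file headers, and the other flags per spot (well above background, saturated, outlier) come from the same deposited files. The authors' series table holds log2 values that look normalized between arrays, by a method not given in the sources used here.

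From the intensities log2(signal) minus the 75th percentile of the array was computed over 59305 non-control spots, without outlier spots, and repeated spots were averaged per probe. The arrays hold 55681 probes, and 27656 were given a symbol by matching their accession to the RefSeq gene table (20972 symbols). A probe stayed in if any group had it well above background on both its arrays (27258 probes), and each gene was represented by its probe of highest mean, which gave 20869 genes and transcripts. limma 3.58.1 in R 4.3.3 fitted 3 groups with empirical Bayes (two-sided, Benjamini-Hochberg, threshold 0.05), with 3 residual and 2.21 prior degrees of freedom. Precision is limited by the number of arrays. The fit was tested on simulated data. For 8 values a spot was missing and its array left out for that probe.

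Genes named are Dmd, Utrn, every gene past the threshold, the 15 highest and 15 lowest differences with arrays apart, the 10 smallest p of the 2-group fit, and members of the lists. The 15 highest and 15 lowest had a symbol and were well above background on both arrays of B10_tap or of MDX_tap. Names that are only identifiers were left out of these 15. Members and lists were chosen with earlier results of these data known. Alternatives were normexp (offset 50) with quantile normalization, the authors' table, other scalings, filters, probe rules, variance models, blocks, and leaving out each array. Normexp used the median spot signal, since a mean signal column was not used here. Replicate differences correlated at -0.03 between B10_tap and MDX_tap, -0.06 between B10_tap and MDX_JJ101 and 0.16 between the MDX groups, and the numbers were not taken as pairs. A few list members are not reported here.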

Additional observations from a re-analysis of the deposited data

How the results depend on the processing

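The count of 5 genes past the threshold depended on the processing. It was 407 with normexp and quantile normalization, 336 in the authors' table, 285 with median centring, 413 with spike-in scaling, 0 with no filter (limma, 5113 at an unadjusted p under 0.05), 151 with probes well above background on all 6 arrays, 15 with every probe, 125 with the 2 groups alone, 316 with an intensity trend, 364 with array weights and 434 at an adjusted p under 0.1. With the 2 groups alone and median centring, chosen after seeing the data, it was 377. Leaving out 1 array at a time gave 0 to 125; the 0 was without B10_tap replicate 1 or MDX_tap replicate 1 (limma, 2249 and 3325 at an unadjusted p under 0.05), and without 1 MDX_JJ101 array the fit has the residual degrees of freedom of the 2 groups alone. A replicate block gave 4, although the numbers do not pair the arrays, and the slide column as a random block gave 5.

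The 512 genes 2-fold and apart were 151 with normexp and quantile normalization, 187 in the authors' table, 933 with no filter, 244 with probes well above background on all 6 arrays and 1532 at 1.5-fold, and 546 to 696 without 1 array. Dmd passed in 7 of 20 settings, by limma's adjusted p: normexp and quantile normalization (-1.34, 0.0162), the authors' table (-1.45, 0.0211), median centring (-1.44, 0.0425), spike-in scaling (-1.64, 0.00399), probes well above background on all 6 arrays (-1.61, 0.0367), an intensity trend (-1.61, 0.0216) and array weights (-1.61, 0.0355). With a replicate block its adjusted p was 0.116, and without 1 array its difference was -1.90 to -1.33 with adjusted p up to 0.352. List medians above 0 were 41 of 46 with median centring, and 25 to 30 without 1 array. Over all lists and settings 101 medians moved by more than the replicate spread, 451 did not, and 37 changed sign. Named genes turned sign as follows. With median centring, in either fit, Col4a2 stood at 0.11, Gata4 at 0.072, Tgfb1 at 0.10 and Thbs2 at 0.041. Without 1 array Utrn ran from -0.10 to 0.27, Tgfb1 from -0.24 to 0.10, Col4a2 from -0.15 to 0.025, Coq10b from -0.032 to 0.30, 3110070M22Rik from -1.42 to 0.21 and Tnnc2 from -1.57 to 1.00. The cause was not tested.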

Other observations

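Genes outside the lists also differed, and the following were chosen after their values were seen. With the 2 groups fitted alone Fst, follistatin, which binds activins, was higher in MDX_tap, at -2.12 and -2.63 in B10_tap and 0.23 and 0.04 in MDX_tap (2.51). Cilp, a matrix protein of cartilage and scarred heart, was at -0.37 and -0.45 against 1.82 and 2.39 (2.52), and Prg4, lubricin, at 1.12 and 1.25 against 2.95 and 3.12 (1.85). Htr2b, a serotonin receptor, was at -3.81 and -3.81 against -1.94 and -2.02 (1.83), and Pdcd1, the PD-1 receptor of activated lymphocytes, was at least 3.44-fold higher. All 5 passed in that fit, although Pdcd1 was not well above background in B10_tap and its p rests in part on such dim signals. Lower there were Cps1, the first enzyme of the urea cycle, at least 5.10-fold, and the collagenase gene Mmp13. Mmp13 was at -3.03 and -2.76 in B10_tap and at least 2.19-fold lower in MDX_tap, against the direction of Timp1 and Mmp3. Neither Cps1 nor Mmp13 was well above background in MDX_tap, so their p-values also rest in part on dim signals.

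Families taken by symbol, also after their values were seen, differed within themselves. Of 10 NK receptor genes named Klr, 3 were 2-fold higher and apart (Klrb1a, Klrb1b and Klrd1) and 3 lower (Klra4, Klra6 and Klra10). Both hyaluronan synthase genes tested were higher, Has1 by 1.62 and Has2 by 1.18. Of 8 Ms4a genes 4 were 2-fold higher and apart, and of 82 olfactory receptor genes 2 were higher and 15 lower.

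In a run of zinc finger type genes on chromosome 2, 12 members had log2 levels on MDX_tap replicate 1 that differed from replicate 2 by -5.03 to -1.32. Their median levels were 2.45 and 2.42 in B10_tap, -0.15 and 2.25 in MDX_tap, with MDX_JJ101 at -0.98 and 1.67. Of the 13952 genes with a symbol 38 split by at least 1.0 in this manner in both MDX groups, 18 lower on the arrays numbered 1 and 20 lower on those numbered 2. Among the 169 genes 2-fold lower and apart are 11 of these 12 members. Of the 13 genes tested in the run the other, Gm14288, was also 2-fold lower and apart (-1.04), at 3.33 and 4.26 in MDX_tap. The split was found by looking and its cause was not tested.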
